A study of Mus musculus with 9 samples.

Results

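The chemokine and formyl peptide receptors Ccr1, Ccr2, Ccr7, Cxcr2, Cxcr3, Cxcr4, Cx3cr1, Fpr1 and Fpr2 were compared between mouse bone marrow cells carrying NRASG12D, NUP98-NSD1 or both. The genes were found by symbol in the gene tables, and each of the 9 symbols matched 1 of 55274 gene identifiers. Each group held 3 RNA-seq libraries, 9 in all, of paired-end reads of 50 bp. Comparing the groups asks how the receptors differ between cells with each oncogene alone and cells with both. All groups started from bone marrow of C57BL/6J mice given 5-fluorouracil at 150 mg/kg 4 days before harvest, and the methods describe such mice as female and 6 to 8 weeks old. The cells were stimulated for 48 h in medium with human interleukin-6 at 10 ng/mL, mouse interleukin-3 at 6 ng/mL and mouse stem cell factor at 20 ng/mL. They were then transduced with MSCV retroviral vectors, in which NUP98-NSD1 was linked to GFP and NRASG12D to BFP. For RNA, the transduced cells were sorted for these fluorochromes and expanded. NRASG12D is a constitutively active mutant of NRAS, and NUP98-NSD1 is a leukemia fusion of a nucleoporin with a methyltransferase of histone H3. No untransduced cells were among the libraries. The labels do not say whether the libraries of a group came from separate mice or cultures, so the p-values measure only the spread between these libraries.

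Chemokine receptors are G protein-coupled receptors through which leukocytes follow gradients of small secreted chemokines. Ccr2 and Cxcr2 are known for the exit of monocytes and neutrophils from the bone marrow, and Cxcr4 for the retention of cells there. Formyl peptide receptors sense N-formylated peptides released by bacteria and damaged mitochondria and guide phagocytes to them. Both kinds act through Gi proteins, phosphoinositide 3-kinase gamma and Rac.

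Levels are FPKM, fragments per kilobase of transcript per 1e6 mapped fragments. Sequencing depth was estimated from FPKM times transcript length in weakly expressed genes, which grows by a fixed amount for each added fragment. In units of 1e6 fragments, replicates 1 to 3 had 25.5, 37.8 and 23.9 with NRASG12D alone, 30.3, 27.4 and 24.7 with NUP98-NSD1 alone and 29.8, 25.1 and 23.4 with both. Between 68.8% and 78.6% of low values lay within 0.1 of a whole step. A value of 0 was read as allowing up to the level of 3 fragments, a bound that covers counting error only. This bound holds only where a listed 0 stands for fragments that were counted and not for an estimate that failed, which was not tested for any gene. Nras, used as a check of the labels, had 354, 479 and 348 FPKM in the NRASG12D libraries, 50.3, 47.7 and 51.2 in the NUP98-NSD1 libraries and 245, 262 and 701 in the NUP98-NSD1+NRASG12D libraries. The groups labelled with NRASG12D were thus above the group without it in each library. Nup98 ranged from 9.12 to 11.1 FPKM among NRASG12D libraries, from 18.2 to 19.0 among NUP98-NSD1 libraries and from 11.9 to 20.2 among those with both, and Nsd1 had 9.98 to 16.2 FPKM over the 9 libraries.

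The NUP98-NSD1+NRASG12D libraries were the least alike. Across the 13493 tested genes, Pearson's r between libraries of a group was 0.930 to 0.952 there, against 0.983 to 0.984 in NRASG12D and 0.975 to 0.988 in NUP98-NSD1. Genes are not independent replicates, and these values are descriptive. A single library also stood apart in some myeloid genes. NRASG12D replicate 2 held 6.91 FPKM of Ccr2, 3.54 of the myeloperoxidase gene Mpo and 16.6 of the class II invariant chain gene Cd74. The other NRASG12D libraries held 1.72 and 3.72 FPKM of Ccr2, 0 and 0.217 of Mpo, and 0.278 and 0.831 of Cd74. For the tested receptors, results that lost or gained a call without a library are given below with and without it. For other genes, some such results are given only as a count of the fits that kept the call.

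Summed over the 9 receptors, the level was 50.0 to 72.6 FPKM with NRASG12D alone, 145 to 211 with NUP98-NSD1 alone and 256 to 326 with both. Ccr1 made up 62.0% to 68.0% of the sum in NRASG12D libraries and Cx3cr1 22.2% to 32.2%. In the other libraries Ccr1 and Ccr2 were the leading 2 receptors, Ccr1 with 23.6% to 53.8% and Ccr2 with 32.5% to 63.9%. The receptor messages of NRASG12D cells were thus mainly Ccr1 and Cx3cr1, and those of both NUP98-NSD1 groups mainly Ccr1 and Ccr2.

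A gene entered the tests if 3 or more of the 9 libraries reached 1 FPKM. The values log2(FPKM + 1) were compared with limma, each pair of groups on its own 6 libraries, and a gene was called at an adjusted p under 0.05. This scale understates fold changes of genes near or under 1 FPKM. Of the 9 receptors, 7 were tested and Ccr7 and Cxcr3 were not. Cxcr2, Cxcr4, Fpr1 and Fpr2 passed the filter only through the groups with NUP98-NSD1, so the counts of receptors are given as a description. The direction of these genes against NRASG12D cells was largely set by the filter, also where their calls held in alternative fits. In NUP98-NSD1 against NRASG12D cells, 6 of 7 tested receptors were called higher and 0 lower. Of all tested genes, 52.1% were called there, 42.2% higher and 9.98% lower. In NUP98-NSD1+NRASG12D against NRASG12D cells, 6 receptors were called higher and 1 lower. The shares of all tested genes were 38.3% called, 24.2% higher and 14.1% lower. In NUP98-NSD1+NRASG12D against NUP98-NSD1 cells, 1 receptor was called higher and 1 lower, where 8.61% of all tested genes were called, 2.30% higher and 6.31% lower. The 3 comparisons share groups, so their values stand side by side and are not independent. Ccr2, Cxcr2 and Fpr1 also stand in the study's own tables of changed genes, which were drawn from these libraries.

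The median log2 fold change over all tested genes was 0.27, 0.23 and -0.06 in the 3 comparisons, in the order given above, and 0.01, 0.06 and 0.04 after median-ratio scaling of the libraries. The split of called genes into higher and lower depends on the scaling. For NUP98-NSD1 against NRASG12D cells it was 5689 higher and 1347 lower, against 3231 and 2950 after median-ratio scaling, 2619 and 3447 after quantile normalization and 4372 and 2107 as TPM. With both oncogenes against NRASG12D alone the split was 3266 and 1907, and under these scalings 2773 and 2449, 2155 and 3064, and 2326 and 2536. The median over the tested receptors was 1.45, 2.48 and 0.79, and without Fpr2, which was listed at 0 in NRASG12D, it was 1.41 and 2.46 for the comparisons with NRASG12D cells. After median-ratio scaling the median over the 7 receptors was 1.36, 2.43 and 0.82. Of these receptors, 4 were under 1 FPKM in each NRASG12D library and passed the filter only through the other groups. The receptor medians against NRASG12D cells were thus largely set by the filter and are a description. In bulk RNA, more cells of a type and more RNA per cell cannot be told apart, and the same holds for fewer cells and less RNA.

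**Figure D1:**
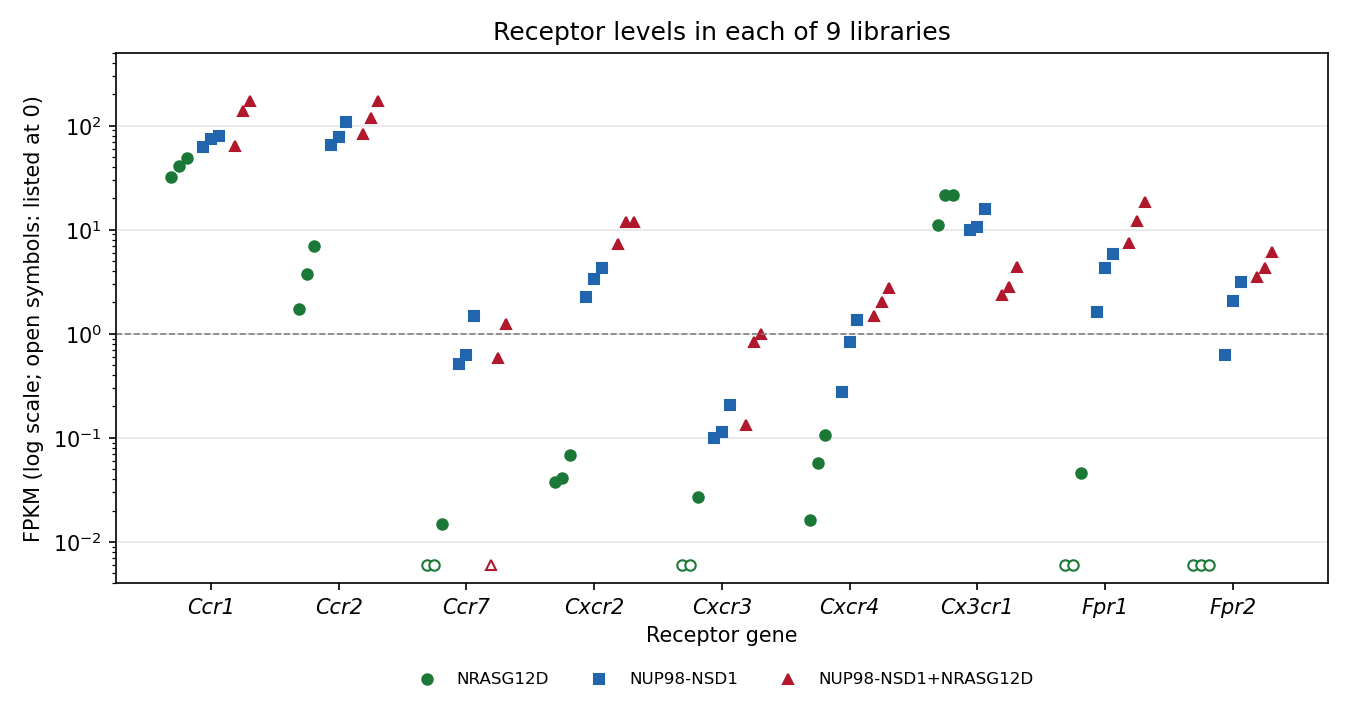
FPKM of each receptor gene on a log axis, with 1 symbol per library, the 3 libraries of a group ordered by value, open symbols for values listed at 0 and the dashed line at 1 FPKM. Cxcr2, Fpr1 and Fpr2 lie under 0.1 FPKM or at 0 in NRASG12D libraries and above 0.6 FPKM in the other 6, and Cx3cr1 is lowest in NUP98-NSD1+NRASG12D libraries.

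Ccr1 (ENSMUSG00000025804.5, chr9:123962124-123968692 of GRCm38, minus strand) binds Ccl3, Ccl5, Ccl6 and Ccl9 and is found on monocytes, neutrophils and mast cells. It had 49.3, 31.9 and 41.3 FPKM in NRASG12D, 74.2, 62.4 and 79.2 in NUP98-NSD1 and 64.3, 138 and 173 in NUP98-NSD1+NRASG12D libraries. Every library with NUP98-NSD1 was above every NRASG12D library, while replicate 1 of NUP98-NSD1+NRASG12D lay among the NUP98-NSD1 libraries. Ccr1 rose from 40.8 ± 8.73 to 71.9 ± 8.64 FPKM (SD, n = 3) in NUP98-NSD1 cells, which is 0.82 on the log2 scale (standard error 0.17, adjusted p = 0.00695). This call was lost after median-ratio scaling (0.51, adjusted p = 0.0625) and quantile normalization (0.52, adjusted p = 0.0682), with all 9 libraries in 1 fit (adjusted p = 0.0957) and without the filter (adjusted p = 0.0502). In NUP98-NSD1+NRASG12D cells it rose to 125 ± 55.4 FPKM (SD, n = 3), 1.5 above NRASG12D cells on the log2 scale (standard error 0.37, adjusted p = 0.0194). That call was lost after the same scalings (adjusted p = 0.0536 and 0.0662), without the filter (adjusted p = 0.101), and without NRASG12D replicate 2, NRASG12D replicate 3 or NUP98-NSD1+NRASG12D replicate 3 (adjusted p = 0.0710, 0.0625 and 0.0542). The 2 groups with NUP98-NSD1 were not called different, with a log2 difference of 0.68 (95% interval -0.17 to 1.53, adjusted p = 0.312). Without NUP98-NSD1+NRASG12D replicate 1 this difference was 1.10 and was called (adjusted p = 0.0154), as it was with array weights (1.13, adjusted p = 0.0150).

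Ccr2 (ENSMUSG00000049103.14, chr9:124101950-124113557, plus strand), the receptor of Ccl2, Ccl7 and Ccl12 on inflammatory monocytes, had 1.72, 6.91 and 3.72 FPKM in NRASG12D libraries. It had 108, 64.6 and 77.9 FPKM in NUP98-NSD1 and 174, 83.2 and 119 FPKM in NUP98-NSD1+NRASG12D libraries. The lowest library with NUP98-NSD1 was thus far above the highest NRASG12D library, and the 2 groups with NUP98-NSD1 overlapped. Ccr2 rose from 4.12 ± 2.62 FPKM in NRASG12D to 83.4 ± 22.04 FPKM in NUP98-NSD1 cells (SD, n = 3), by 4.15 on the log2 scale (standard error 0.38, adjusted p = 0.000531). The cells with both oncogenes held 125.5 ± 45.8 FPKM (SD, n = 3), a rise of 4.70 on the log2 scale (standard error 0.43, adjusted p = 0.000351). Without NRASG12D replicate 2, the highest of its group, the log2 fold changes were 4.53 and 5.08. Both calls held in all 15 alternative fits. Between the groups with NUP98-NSD1 the log2 difference of 0.55 was not called (95% interval -0.19 to 1.29, adjusted p = 0.353). Among the 13493 tested genes, Ccr2 ranked 88 by log2 fold change in NUP98-NSD1 and 170 in NUP98-NSD1+NRASG12D against NRASG12D cells. By FPKM among all gene identifiers, Ccr2 stood at ranks 769, 1350 and 1031 in NUP98-NSD1+NRASG12D replicates 1 to 3 and Ccr1 at ranks 2243, 738 and 662, so which of them led differed between these libraries.

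Ccr7 (ENSMUSG00000037944.8, chr11:99144196-99155077, minus strand) guides dendritic cells and lymphocytes to lymph nodes. It was listed at 0, 0.0148 and 0 FPKM in NRASG12D, 1.49, 0.515 and 0.631 in NUP98-NSD1, and 1.24, 0.579 and 0 in NUP98-NSD1+NRASG12D libraries. The value of NRASG12D replicate 2 equals 1 fragment, and the values of 0, if counted, allow up to 0.0647 FPKM in NRASG12D replicate 1, 0.0698 in replicate 3 and 0.0690 in NUP98-NSD1+NRASG12D replicate 3. All NUP98-NSD1 libraries were above all NRASG12D libraries, with a two-sided exact permutation p of 0.1, the smallest that 3 libraries against 3 allow. NUP98-NSD1+NRASG12D libraries overlapped both other groups (exact permutation p = 0.4 against NRASG12D and 0.6 against NUP98-NSD1).

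Cxcr2 (ENSMUSG00000026180.8, chr1:74153989-74161246, plus strand) is the main chemokine receptor of neutrophils and binds Cxcl1, Cxcl2 and related ligands. It had 0.0686, 0.0373 and 0.0411 FPKM in NRASG12D libraries, which corresponds to 5, 4 and 3 fragments. It had 4.26, 3.37 and 2.27 FPKM in NUP98-NSD1 and 12.0, 7.25 and 11.8 FPKM in NUP98-NSD1+NRASG12D libraries. The 3 groups did not overlap, and the order of levels was NRASG12D, NUP98-NSD1 and NUP98-NSD1+NRASG12D. On the log2 scale Cxcr2 rose by 2.01 in NUP98-NSD1 cells (standard error 0.19, adjusted p = 0.000590) and by 3.40 in NUP98-NSD1+NRASG12D cells (standard error 0.22, adjusted p = 0.000118), both against NRASG12D cells. Between the groups with NUP98-NSD1 it went from 3.30 ± 1.00 up to 10.3 ± 2.67 FPKM (SD, n = 3) when NRASG12D was present too, a rise of 1.39 on the log2 scale (standard error 0.27, adjusted p = 0.0263). This last call was lost without the filter (adjusted p = 0.145) and in the fits without NUP98-NSD1 replicate 1, 2 or 3 or without NUP98-NSD1+NRASG12D replicate 3 (adjusted p = 0.0560, 0.0989, 0.0990 and 0.0841). It was the only receptor called higher between these 2 groups. Of its stretches of 50 bases, 6.68% also occur in transcripts of other genes.

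Cxcr3 (ENSMUSG00000050232.6, chrX:101731535-101734269, minus strand), a receptor of activated T and NK cells for Cxcl9, Cxcl10 and Cxcl11, was under 1 FPKM in each library and was not tested. It had 0, 0 and 0.0269 FPKM in NRASG12D, 0.205, 0.114 and 0.101 in NUP98-NSD1 and 0.836, 0.991 and 0.132 in NUP98-NSD1+NRASG12D libraries. These are 0, 0 and 1 fragments, 10, 5 and 4 fragments, and 39, 40 and 5 fragments. The groups with NUP98-NSD1 overlapped each other and lay above NRASG12D (exact permutation p = 0.1 for each against NRASG12D, 0.2 between them).

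Cxcr4 (ENSMUSG00000045382.6, chr1:128588199-128592293, minus strand) binds Cxcl12 and holds blood-forming cells in the marrow. It had 0.106, 0.0163 and 0.0578 FPKM in NRASG12D, 1.35, 0.831 and 0.275 in NUP98-NSD1 and 2.03, 1.47 and 2.78 in NUP98-NSD1+NRASG12D libraries. The groups did not overlap, but NRASG12D libraries held only 4, 1 and 2 fragments. Cxcr4 was called higher in NUP98-NSD1 than in NRASG12D cells, by 0.74 on the log2 scale (standard error 0.23, adjusted p = 0.0314). Quantile normalization left 0.11 of this (adjusted p = 0.701), and the call was also lost without the filter (adjusted p = 0.133) and with all 9 libraries in 1 fit (adjusted p = 0.0565). Among 6 fits with a library removed, only that without NUP98-NSD1 replicate 3 called it (0.97, adjusted p = 0.00282), and the others gave adjusted p-values of 0.0669 without NRASG12D replicate 1, 0.0801 without NRASG12D replicate 2, 0.0824 without NRASG12D replicate 3, 0.0750 without NUP98-NSD1 replicate 1 and 0.0894 without NUP98-NSD1 replicate 2. In NUP98-NSD1+NRASG12D cells Cxcr4 rose by 1.52 on the log2 scale against NRASG12D cells (standard error 0.20, adjusted p = 0.00148), a call that held in all 14 alternative fits that tested it. The 2 groups with NUP98-NSD1 were not called different, with a log2 difference of 0.79 (95% interval 0.13 to 1.44, adjusted p = 0.134).

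Cx3cr1 (ENSMUSG00000052336.7, chr9:119901616-120069879, minus strand), the receptor of the membrane-bound chemokine Cx3cl1 and a marker of patrolling monocytes and tissue macrophages, went the other way. It had 21.4, 11.1 and 21.4 FPKM in NRASG12D, 15.7, 10.7 and 9.97 in NUP98-NSD1 and 4.36, 2.83 and 2.36 in NUP98-NSD1+NRASG12D libraries. Each NUP98-NSD1+NRASG12D library was under each other library, while the 2 groups with a single oncogene overlapped. Cx3cr1 fell by 2.15 on the log2 scale from NRASG12D to NUP98-NSD1+NRASG12D cells, from 17.9 ± 5.96 to 3.18 ± 1.04 FPKM (SD, n = 3, standard error 0.30, adjusted p = 0.00200). Relative to NUP98-NSD1 cells, which had 12.1 ± 3.09 FPKM (SD, n = 3), it fell by 1.65 (standard error 0.25, adjusted p = 0.0136). That second call was lost without the filter (adjusted p = 0.0992) and without NUP98-NSD1 replicate 1 or 2 (adjusted p = 0.0511 and 0.0544). Between NUP98-NSD1 and NRASG12D cells the log2 difference of -0.50 was not called (95% interval -1.14 to 0.15, adjusted p = 0.164), and it was called only without NRASG12D replicate 2 (-0.80, adjusted p = 0.0197). Its ligand Cx3cl1 had 1.28, 3.43 and 0.994 FPKM in NRASG12D libraries and 0.189 to 0.962 FPKM in the other 6, and it was not tested.

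Fpr1 (ENSMUSG00000045551.7, chr17:17876471-17883940, minus strand), the high-affinity receptor for formyl peptides on phagocytes, had 0, 0.0460 and 0 FPKM in NRASG12D libraries, which is 0, 2 and 0 fragments. It had 4.26, 1.63 and 5.89 FPKM in NUP98-NSD1 and 7.53, 18.6 and 12.1 FPKM in NUP98-NSD1+NRASG12D libraries. The 3 groups did not overlap. On the log2(FPKM + 1) scale it rose by 2.17 in NUP98-NSD1 cells (standard error 0.33, adjusted p = 0.00257) and by 3.68 in NUP98-NSD1+NRASG12D cells (standard error 0.30, adjusted p = 0.000242) against NRASG12D cells. Both calls held in all 15 alternative fits, but Fpr1 had passed the filter only through the groups with NUP98-NSD1. The log2 difference of 1.51 between the groups with NUP98-NSD1 was not called (95% interval 0.48 to 2.54, adjusted p = 0.0810). It was called with all 9 libraries in 1 fit (adjusted p = 0.0274), with array weights (1.97, adjusted p = 0.0341) and without NUP98-NSD1+NRASG12D replicate 1 (1.81, adjusted p = 0.0432).

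Fpr2 (ENSMUSG00000052270.7, chr17:17887824-17893952, plus strand) also binds lipids and proteins of inflammation, among them annexin A1, serum amyloid A and cathelicidin. It was listed at 0 in all 3 NRASG12D libraries, which allows up to 0.121, 0.0816 and 0.132 FPKM if these are counted values. It had 2.05, 0.619 and 3.16 FPKM in NUP98-NSD1 and 6.17, 3.51 and 4.32 FPKM in NUP98-NSD1+NRASG12D libraries. The groups did not overlap, and no fold change is given against a group at 0. Fpr2 was called higher than in NRASG12D cells both in NUP98-NSD1 (adjusted p = 0.00916) and in NUP98-NSD1+NRASG12D cells (adjusted p = 0.000260). The former call was lost without the filter (adjusted p = 0.0650) and after quantile normalization (adjusted p = 0.0506). Between the groups with NUP98-NSD1 the log2 difference of 1.02 was not called (95% interval 0.15 to 1.90, adjusted p = 0.143). Of the 50-base stretches of Fpr2, 28.4% also occur in Gm5966, so reads of these genes may not be told apart over that share.

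With a pseudocount of 0.1 in place of 1, log2 fold changes of receptors near 0 in NRASG12D cells were larger. Those of Cxcr2 were then 4.47 in NUP98-NSD1 and 6.10 in NUP98-NSD1+NRASG12D cells, those of Cxcr4 2.36 and 3.77, and those of Fpr1 4.97 and 6.73. The direction was the same, and for these genes the size of a log2 fold change depends on this choice.

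Several of the receptors lie in gene clusters, some of whose other members had low levels in all groups. On chromosome 9, Ccr3 (124021972 to 124031689) lies between Ccr1 and Ccr2 and had 0.0434 to 0.488 FPKM over the 9 libraries. Ccr9, Cxcr6 and Xcr1, further along the same cluster, had 0 to 0.137 FPKM. Of these 6 genes, Ccr1 and Ccr2 thus had high levels in libraries with NUP98-NSD1 and the other 4 did not. On chromosome 17, Fpr1 and Fpr2 lie next to each other on opposite strands, and Fpr3 overlaps the span of Fpr2. Fpr3 had 0 to 0.0779 FPKM and Fpr-rs3, Fpr-rs4, Fpr-rs6 and Fpr-rs7 had 0 to 0.123 FPKM over the 9 libraries. On chromosome 1, Cxcr1 (74191785 to 74194631), the closest relative of Cxcr2, had 0 to 0.201 FPKM.

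Ligands of the 9 receptors were taken as a list of 28 genes, of which 18 were tested. Of these, 16 were called higher and 0 lower in NUP98-NSD1 against NRASG12D cells, with a median log2 fold change of 3.38 over the list and 0.27 over all tested genes, of which 42.2% were called higher. Of the tested ligands, 9 were under 1 FPKM in each NRASG12D library and passed the filter only through the other groups, so their direction was largely set by the filter and the count is a description. Without Ccl8 and Camp, which were listed at 0 in each NRASG12D library, the median was 3.52. For NUP98-NSD1+NRASG12D against NRASG12D cells, 15 were called higher and 0 lower, with a median of 4.70, and of 3.84 without these 2 genes, against 0.23 over all tested genes, of which 24.2% were called higher. There were 2 ligands called higher and 0 lower between the groups with NUP98-NSD1, where 2.30% of all tested genes were called higher, with a median of 1.90 against -0.06. After median-ratio scaling, after quantile normalization and as TPM, 1 ligand was called higher there.

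The largest rises among ligands with a level above 0 in both groups were those of Saa3, Ccl6 and Ccl9. Saa3, a serum amyloid A protein of macrophages, had 0.309, 0.633 and 0.607 FPKM in NRASG12D, 168, 115 and 146 in NUP98-NSD1 and 337, 445 and 149.9 in NUP98-NSD1+NRASG12D libraries. Ccl6, a mouse ligand of Ccr1, had 0.227, 14.9 and 0.995 FPKM in NRASG12D, 249.0, 360.3 and 151 in NUP98-NSD1 and 295, 2997 and 3550.0 in NUP98-NSD1+NRASG12D libraries. Ccl9, another ligand of Ccr1, had 0.635, 4.89 and 0.677 FPKM in NRASG12D, 119.7, 134 and 47.7 in NUP98-NSD1 and 178, 415 and 624 in NUP98-NSD1+NRASG12D libraries. In each of these genes NRASG12D replicate 2 was the highest NRASG12D library and still under every library with NUP98-NSD1. The log2 fold changes in NUP98-NSD1 cells were 6.56 for Saa3 (adjusted p = 4.93e-06), 6.14 for Ccl6 (adjusted p = 0.00225) and 5.19 for Ccl9 (adjusted p = 0.00104). In NUP98-NSD1+NRASG12D cells they were 7.55 for Saa3 (adjusted p = 5.45e-05), 8.76 for Ccl6 (adjusted p = 0.00196) and 7.15 for Ccl9 (adjusted p = 0.000302).

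Ligands of Cxcr2 and Fpr2 were called higher between the groups with NUP98-NSD1. Cxcl2, a Cxcr2 ligand that attracts neutrophils, had 2.34, 2.27 and 2.28 FPKM in NUP98-NSD1 and 9.33, 24.9 and 20.2 FPKM in NUP98-NSD1+NRASG12D libraries, a rise of 2.44 on the log2 scale (standard error 0.34, adjusted p = 0.0107). In NRASG12D libraries it had 0.0232, 0 and 0.192 FPKM. Camp, the cathelicidin gene, had 23.4, 7.74 and 5.17 FPKM in NUP98-NSD1 and 31.6, 68.5 and 61.5 FPKM in NUP98-NSD1+NRASG12D libraries, a rise of 2.25 on the log2 scale (standard error 0.54, adjusted p = 0.0496). The groups did not overlap for either gene, but the call of Camp held in only 3 of 9 other settings and 2 of 6 fits without a library. The call of Cxcl2 was lost without the filter and without NUP98-NSD1 replicate 3, where the adjusted p was 0.0977 and 0.0517.

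Some ligands were already present in NRASG12D cells or absent from all groups. Ccl2, the main ligand of Ccr2, had 382, 740.0 and 452 FPKM in NRASG12D, 533, 468 and 653 in NUP98-NSD1 and 158, 1463 and 631 in NUP98-NSD1+NRASG12D libraries. The groups overlapped, and its log2 difference between NUP98-NSD1 and NRASG12D cells was 0.12 (95% interval -0.47 to 0.70, adjusted p = 0.713). Cxcl12, the ligand of Cxcr4, had 0 to 0.113 FPKM over the 9 libraries, and Ccl19 and Ccl21a, the ligands of Ccr7, had 0 to 0.0661 FPKM. Cxcl10, a ligand of Cxcr3, had 0.0853 to 0.141 FPKM with NRASG12D alone, 0.997 to 1.65 with NUP98-NSD1 alone and 2.82 to 13.2 with both.

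Of 32 other chemoattractant receptors, 11 were tested. In NUP98-NSD1 against NRASG12D cells, 4 were called higher and 2 lower, with a median log2 fold change of -0.07 against 0.27 over all tested genes, of which 42.2% were called higher and 9.98% lower. With both oncogenes against NRASG12D alone, 5 were called higher and 3 lower, with a median of 0.80 against 0.23, beside 24.2% and 14.1% of all tested genes. The groups with NUP98-NSD1 differed in 1 higher and 3 lower, with a median of 0.67 against -0.06, beside 2.30% and 6.31% of all tested genes. In the first comparison, 4 were higher and 3 lower after median-ratio scaling and after quantile normalization. Quantile normalization gave 4 higher and 4 lower in the second, and both it and TPM gave 2 higher and 3 lower in the third. The list thus moved in both directions in each comparison.

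Leukotriene B4 receptors moved apart. Ltb4r1, the high-affinity receptor that draws neutrophils, had 3.19, 4.18 and 4.14 FPKM in NRASG12D, 50.5, 33.1 and 27.5 in NUP98-NSD1 and 92.3, 67.3 and 69.7 in NUP98-NSD1+NRASG12D libraries. Its neighbour Ltb4r2, the low-affinity receptor, had 4.78, 2.45 and 7.45 FPKM in NRASG12D, 1.22, 1.60 and 1.21 in NUP98-NSD1 and 0.0859, 0.408 and 0.0118 in NUP98-NSD1+NRASG12D libraries. None of the groups overlapped for either gene, and the orders were opposite. Against NRASG12D cells, Ltb4r1 rose by 2.94 on the log2 scale in NUP98-NSD1 cells (standard error 0.22, adjusted p = 0.000246) and by 3.99 in NUP98-NSD1+NRASG12D cells (standard error 0.18, adjusted p = 4.24e-05). Ltb4r2 fell by 1.24 (standard error 0.30, adjusted p = 0.0133) and by 2.25 (standard error 0.34, adjusted p = 0.00255). Ltb4r2 also fell by 1.01 between the groups with NUP98-NSD1 (adjusted p = 0.0232), a call that held in 6 of 8 other settings and 2 of 6 fits without a library. The call of its fall in NUP98-NSD1 cells was lost without the filter (adjusted p = 0.0841). For Ltb4r1, the log2 difference of 1.06 between the groups with NUP98-NSD1 was not called (95% interval 0.45 to 1.66, adjusted p = 0.0506).

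C5ar1, the receptor of complement C5a, had 1.21, 9.44 and 1.59 FPKM in NRASG12D, 10.7, 7.97 and 11.7 in NUP98-NSD1 and 25.4, 112 and 105 in NUP98-NSD1+NRASG12D libraries. It rose by 4.12 from NRASG12D to NUP98-NSD1+NRASG12D cells (standard error 0.76, adjusted p = 0.006) and by 2.63 from NUP98-NSD1 cells (standard error 0.55, adjusted p = 0.0334). The former call was lost without the filter (adjusted p = 0.0540), and the latter held in 7 of 9 other settings and 1 of 6 fits without a library. Ccrl2, which binds chemerin without signalling, rose by 0.95 in NUP98-NSD1 cells against NRASG12D cells (standard error 0.20, adjusted p = 0.00784), a call that was lost at the same value with all 9 libraries in 1 fit (adjusted p = 0.0715). In NUP98-NSD1+NRASG12D cells it rose by 1.75 (standard error 0.39, adjusted p = 0.0125).

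Receptors that fell included Hrh4, the histamine receptor of mast cells and eosinophils, and the atypical chemokine receptor Ackr1. Hrh4 had 26.6, 22.2 and 25.8 FPKM in NRASG12D, 7.47, 6.71 and 4.50 in NUP98-NSD1 and 0.176, 1.01 and 0 in NUP98-NSD1+NRASG12D libraries, with no overlap between groups. It fell by 1.86 in NUP98-NSD1 (standard error 0.17, adjusted p = 0.000562) and by 4.28 in NUP98-NSD1+NRASG12D cells (standard error 0.28, adjusted p = 0.000122) against NRASG12D cells, and by 2.42 between the latter and NUP98-NSD1 cells (standard error 0.31, adjusted p = 0.00925). Only the last of these calls was lost in an alternative, without the filter (adjusted p = 0.0837). Ackr1, which binds chemokines without signalling, had 15.3, 127 and 31.4 FPKM in NRASG12D, 21.3, 17.5 and 34.8 in NUP98-NSD1 and 0.169, 3.99 and 0 in NUP98-NSD1+NRASG12D libraries. It fell by 4.50 in NUP98-NSD1+NRASG12D against NRASG12D cells (standard error 0.88, adjusted p = 0.00761) and by 3.77 relative to NUP98-NSD1 cells (standard error 0.62, adjusted p = 0.0170). Both calls were lost without the filter (adjusted p = 0.0624 and 0.142), and the second held in 2 of 6 fits without a library. The transcript of Ackr1 shares 20.4% of its 50-base stretches with the overlapping gene Cadm3.

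Genes of signalling downstream of chemoattractant receptors formed a list of 36 symbols, among them an older and a newer name of 1 gene, and 35 were found and tested. Of these, 13 were called higher and 7 lower in NUP98-NSD1 against NRASG12D cells, with a median log2 fold change of 0.04 against 0.27 over all tested genes, of which 42.2% were called higher and 9.98% lower. After median-ratio scaling the same list had 9 higher and 17 lower, so these counts depend on the scaling. Of the 35 tested genes, 6 were under 1 FPKM in each NRASG12D library and passed the filter only through the other groups. Their direction was largely set by the filter, and the counts against NRASG12D cells are a description. With both oncogenes against NRASG12D alone, 9 were higher and 7 lower, with a median of 0.10 against 0.23, beside 24.2% and 14.1% of all tested genes, and after that scaling 7 higher and 9 lower. The groups with NUP98-NSD1 differed in 4 higher and 3 lower, with a median of 0.04 against -0.06. This stood beside 2.30% and 6.31% of all tested genes, and 2 were called in each direction after that scaling. Quantile normalization gave 10 higher and 16 lower in the first comparison, 7 and 13 in the second, and 5 and 2 in the third.

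Within that list, both chains of a leukocyte integrin rose. Itgam, the alpha chain of Mac-1, had 0.0263, 0.796 and 0.0219 FPKM in NRASG12D, 16.8, 12.0 and 12.1 in NUP98-NSD1 and 31.6, 117 and 138 in NUP98-NSD1+NRASG12D libraries. Itgb2, its beta chain, had 4.05, 13.9 and 4.41 FPKM in NRASG12D, 84.1, 66.5 and 47.7 in NUP98-NSD1 and 113, 298.9 and 632 in NUP98-NSD1+NRASG12D libraries. Every library with NUP98-NSD1 was above every NRASG12D library for these 2 genes. In NUP98-NSD1 cells Itgam rose by 3.55 and Itgb2 by 3.14 on the log2 scale (adjusted p = 0.000207 and 0.00177), and in NUP98-NSD1+NRASG12D cells by 6.04 and 5.23 (adjusted p = 0.000368 and 0.00138), all against NRASG12D cells. Between the groups with NUP98-NSD1, Itgam rose by 2.49 (adjusted p = 0.0363) and Pik3r5, a regulatory subunit of phosphoinositide 3-kinase gamma, by 1.42 (adjusted p = 0.0475). Each of these calls held in 1 of 6 fits without a library, that of Itgam in 7 and that of Pik3r5 in 4 of 9 other settings. That of Itgam was lost without the filter (adjusted p = 0.218) and after median-ratio scaling (adjusted p = 0.0540). That of Pik3r5 was lost in both (adjusted p = 0.230 and 0.0552), with a pseudocount of 0.1 (adjusted p = 0.0536), as TPM (adjusted p = 0.06) and with a replicate block (adjusted p = 0.0609).

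The 3 largest called falls of each comparison in that list were among those of Rgs18, Rgs1, Gngt2 and Pik3r6, while others of its genes were called higher, among them Rgs19 by 0.36 in NUP98-NSD1 cells (adjusted p = 0.0157) and by 0.49 in NUP98-NSD1+NRASG12D cells (adjusted p = 0.0319), and Grk3 by 1.83 in NUP98-NSD1 cells (adjusted p = 0.000954), all against NRASG12D cells. Whether the calls of Rgs19 and Grk3 hold under the alternatives is not given. The rises of Rgs19 stand beside medians over all tested genes of 0.27 and 0.23 in these comparisons. Rgs18, which shortens the active state of G proteins, had 368, 441 and 305 FPKM in NRASG12D, 191, 189 and 244 in NUP98-NSD1 and 34.0, 57.3 and 22.5 in NUP98-NSD1+NRASG12D libraries. Rgs1, of the same family, had 171, 195 and 160.2 FPKM in NRASG12D, 167, 185 and 235 in NUP98-NSD1 and 19.9, 45.4 and 13.2 in NUP98-NSD1+NRASG12D libraries. Rgs18 differed between all 3 groups without overlap, whereas Rgs1 was low in NUP98-NSD1+NRASG12D libraries alone. In NUP98-NSD1+NRASG12D cells Rgs18 fell by 3.34 and Rgs1 fell by 2.87 against NRASG12D cells (adjusted p = 0.000517 and 0.00197), and by 2.51 and 3.02 against NUP98-NSD1 cells (adjusted p = 0.00940 and 0.0107). In NUP98-NSD1 against NRASG12D cells Rgs18 fell by 0.83 (adjusted p = 0.00581), Gngt2, a G protein gamma chain, by 0.78 (adjusted p = 0.00215) and Pik3r6, a regulatory subunit of phosphoinositide 3-kinase gamma, by 1.03 (adjusted p = 0.00327). The call of Rgs18 there was lost with all 9 libraries in 1 fit (adjusted p = 0.0739). Gngt2 also fell by 1.80 in NUP98-NSD1+NRASG12D cells against NRASG12D cells (adjusted p = 0.00130) and by 1.02 against NUP98-NSD1 cells (adjusted p = 0.0460), the latter in 3 of 9 other settings and 2 of 6 fits without a library. Between the groups with NUP98-NSD1, all these falls were lost without the filter (adjusted p = 0.0914 for Rgs18, 0.103 for Rgs1 and 0.201 for Gngt2), and that of Rgs1 was lost without NUP98-NSD1 replicate 3 (adjusted p = 0.0521).

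Markers of blood cell types differed between the groups in the same libraries, and their part in the receptor levels was not tested. The 10 mast cell markers summed to 29630, 32170 and 30710 FPKM in NRASG12D, 26780, 26480 and 31380 in NUP98-NSD1 and 944, 4275 and 733 in NUP98-NSD1+NRASG12D libraries. Cma1 led in NRASG12D libraries and Cpa3 in the others, and Cpa3 was listed at 0 in all NRASG12D libraries, which leaves it out of their sums. The 12 neutrophil and promyelocyte markers summed to 30.1, 41.0 and 30.4 FPKM in NRASG12D, 6354, 5949 and 1870 in NUP98-NSD1 and 15380, 9422 and 20310 in NUP98-NSD1+NRASG12D libraries. Ctsg led in NRASG12D libraries, where Ltf and Retnlg were at 0 in each, and Mpo or S100a8 led in the others. The 9 monocyte and macrophage markers found summed to 46.6, 53.9 and 41.0 FPKM in NRASG12D, 985, 741 and 478 in NUP98-NSD1 and 1975, 3586 and 5049 in NUP98-NSD1+NRASG12D libraries. Cd68 led in NRASG12D libraries, with C1qa and C1qb at 0 in replicates 1 and 3, and Ly6c2 led in the others. Without Cpa3, a choice made after the values were seen, the mast cell sums were 13370, 13920 and 17000 FPKM in NUP98-NSD1 and 591, 2454 and 453 in NUP98-NSD1+NRASG12D libraries. The mast cell sums of NUP98-NSD1 and NRASG12D libraries thus overlapped with Cpa3 and were lower in each NUP98-NSD1 library without it, and whether Cpa3 at 0 reflects its RNA was not tested. The neutrophil and monocyte sums were lowest in NRASG12D and highest in NUP98-NSD1+NRASG12D libraries.

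In NUP98-NSD1 against NRASG12D cells, 3 of 9 tested mast cell markers were called higher, Cpa3 among them, and 4 lower, 10 of 12 neutrophil markers higher and 0 lower, and 9 of 9 monocyte markers higher, beside 42.2% of all tested genes higher and 9.98% lower. Of the tested markers, 5 of the neutrophil and 4 of the monocyte list were under 1 FPKM in each NRASG12D library and passed the filter only through the other groups, so these counts are a description. The median log2 fold change of the mast cell markers was -0.59, and -0.91 without Cpa3, and after median-ratio scaling 3 were higher and 6 lower. In NUP98-NSD1+NRASG12D against NRASG12D cells, 2 mast cell markers were called higher and 7 lower, 10 neutrophil markers higher and 0 lower, and 9 monocyte markers higher, beside 24.2% of all tested genes higher and 14.1% lower. Between the groups with NUP98-NSD1, 0 mast cell markers were called higher and 7 lower, 3 neutrophil markers higher and 2 monocyte markers higher, beside 2.30% of all tested genes higher and 6.31% lower. The 8 dendritic cell markers summed to 0.433, 18.5 and 1.10 FPKM in NRASG12D libraries and 136 to 670.4 FPKM in the other 6, of which Cd74 made up 88.8% to 97.0%, and Cd209a was at 0 in all NRASG12D libraries. Of the 4 tested, 2 were under 1 FPKM in each NRASG12D library and entered only through the other groups. Against NRASG12D cells, 4 were called higher in NUP98-NSD1 cells, beside 42.2% of all tested genes, and 3 in NUP98-NSD1+NRASG12D cells, beside 24.2%, and limma called 0 between the groups with NUP98-NSD1, where 0 also had an unadjusted p under 0.05. The 5 basophil and eosinophil markers, led by Mcpt8, summed to 19.2 to 55.3 FPKM with NRASG12D alone, 711 to 1470.0 with NUP98-NSD1 alone and 25.5 to 646 with both. The 8 T and NK cell markers summed to 0.0530 to 1.32 FPKM over the 9 libraries and none was tested, and the 5 B cell markers, led by Cd79b, summed to 0.113 to 9.16 FPKM. The 4 megakaryocyte markers were nearly all Itga2b, which is also found on other blood cells, with sums of 479 to 559 FPKM with NRASG12D alone, 208 to 277 with NUP98-NSD1 alone and 4.43 to 53.1 with both. The 5 erythroid markers, led by Hbb-bt, summed to 2.53, 6.41 and 3.16 FPKM in NRASG12D, 61.7, 95.9 and 37.1 in NUP98-NSD1 and 28.9, 58.6 and 5.41 in NUP98-NSD1+NRASG12D libraries. Of the 4 tested, 2 were likewise under 1 FPKM in each NRASG12D library. All 4 were called higher in NUP98-NSD1 against NRASG12D cells, beside 42.2% of all tested genes, but 3 after quantile normalization, and limma called 0 in the other comparisons, where 3 with both oncogenes against NRASG12D alone and 2 between the groups with NUP98-NSD1 had an unadjusted p under 0.05.

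**Figure D2:**
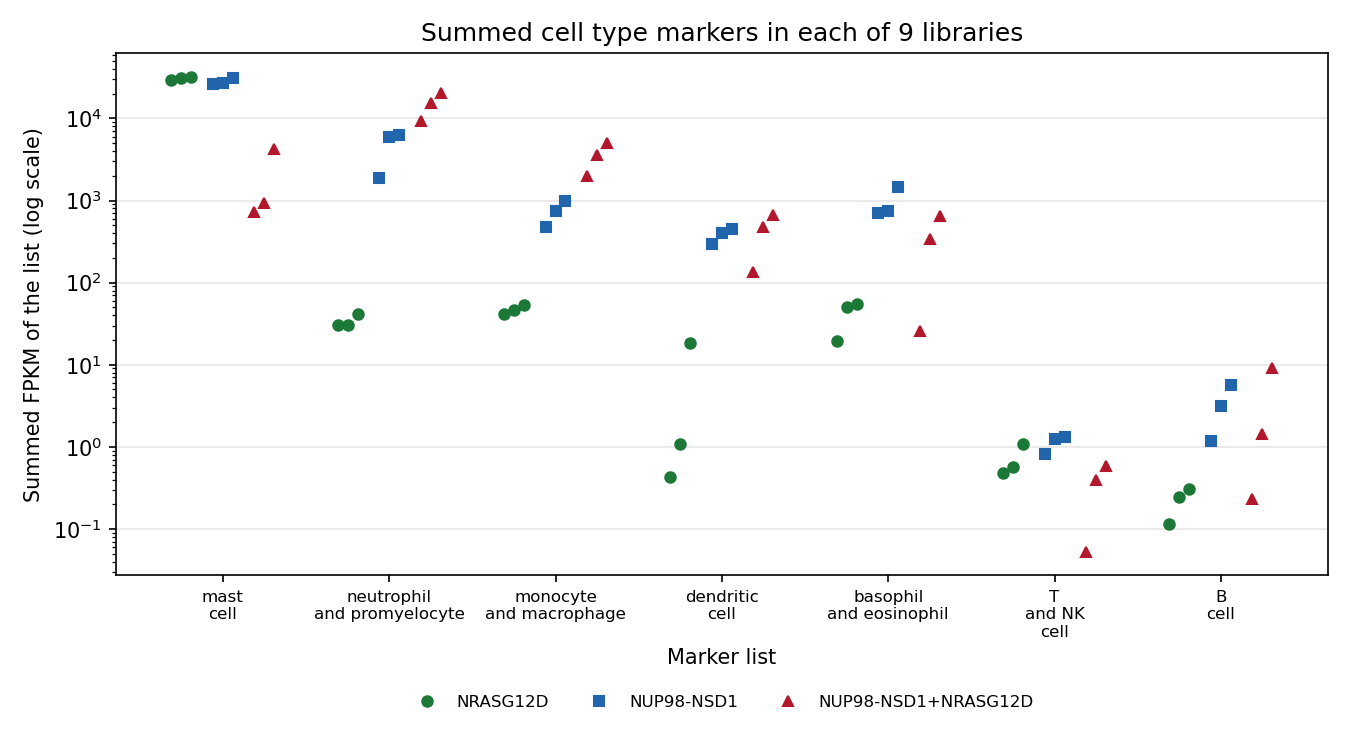
Summed FPKM of the lists of cell type markers, other than megakaryocyte and erythroid, on a log axis, with 1 symbol per library and the 3 libraries of a group ordered by value. The mast cell sums include Cpa3, which was listed at 0 in all NRASG12D libraries. Without Cpa3 they were 13370 to 17000 FPKM in NUP98-NSD1 libraries. Neutrophil and monocyte sums lie under 54 FPKM in NRASG12D libraries and above 478 FPKM in the others, and mast cell sums reach at most 4275 FPKM in NUP98-NSD1+NRASG12D libraries and at least 26480 FPKM in the others.

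The tested receptors other than Cx3cr1 followed a like order over the 9 libraries. Pearson's r of log2(FPKM + 1) over the 9 libraries, which share their groups and are not independent points, was 0.701 to 0.963 between pairs of them and -0.852 to -0.704 between each of them and Cx3cr1. Cxcr2 and Cxcr4 were the most alike pair with 0.963, followed by Fpr1 and Fpr2 with 0.942. These values mainly reflect the differences between groups, and no p is given.

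For each tested receptor, the 3 tested genes with the highest r over the 9 libraries were named. They were Fam241a (0.969), Nrp2 (0.966) and Hip1 (0.965) for Ccr1, and Runx2 (0.989), Prtn3 (0.987) and Hp (0.986) for Ccr2. For Cxcr2 they were Rgs3, Gm5763 and Emb, with r of 0.996 each. For Cxcr4 they were Tpi1 (0.991), Eno1b (0.991) and Eno1 (0.991), of which Tpi1 and Eno1 encode enzymes of glycolysis. For Fpr1 they were March1 (0.987), Bst1 (0.987) and Sirpb1a (0.985), for Fpr2 Cd300lg (0.989), Gm11964 (0.979) and Ifitm6 (0.972), and for Cx3cr1 Tvp23b (0.984), Rsph3b (0.977) and Itgb7 (0.972). As examples of the values behind these, Rgs3 had 0.193 to 0.385 FPKM with NRASG12D alone, 2.85 to 4.88 with NUP98-NSD1 alone and 6.87 to 9.70 with both. Itgb7, the beta chain of an integrin of mast cells and lymphocytes, had 335, 209 and 337 FPKM in NRASG12D, 193, 180.4 and 236 in NUP98-NSD1 and 68.2, 54.5 and 37.2 in NUP98-NSD1+NRASG12D libraries.

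The sequence before the transcription start was read from RefSeq promoters on GRCm38.p6, which held 8 of the 9 receptors and not Ccr7. The window ran from 250 to 11 bases before the start, and in 5 receptors it held no annotated exon. Those of Cxcr2, Fpr1 and Fpr2, which went from at or near 0 in NRASG12D cells to higher levels in both other groups, are shown beside that of Ccr1, which was high in all groups. The window of Cxcr4, which was also near 0 in NRASG12D cells and higher in the other groups, is not printed and held 0 of the motifs below. Motifs of 4 kinds were searched on both strands, and they were chosen with the levels known. They were GAGGAA, a core like that bound by PU.1, TTGCNNAA, like that of C/EBP factors, TGTGGT, like that of RUNX factors, and TGANTCA, like that of AP-1. Of 32851 promoter windows of the same length, 22.3% held GAGGAA, 9.29% TTGCNNAA, 13.6% TGTGGT and 6.58% TGANTCA. In the sequences below, written 5′ to 3′ along the direction of transcription, capitals mark matches, which do not overlap.
Ccr1 (chr9:123968703-123968942, minus strand): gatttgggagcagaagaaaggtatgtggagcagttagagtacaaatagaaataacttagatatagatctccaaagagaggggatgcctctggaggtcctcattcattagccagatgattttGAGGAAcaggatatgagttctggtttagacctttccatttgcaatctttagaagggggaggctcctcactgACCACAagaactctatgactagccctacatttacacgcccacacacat
Cxcr2 (chr1:74153744-74153983, plus strand): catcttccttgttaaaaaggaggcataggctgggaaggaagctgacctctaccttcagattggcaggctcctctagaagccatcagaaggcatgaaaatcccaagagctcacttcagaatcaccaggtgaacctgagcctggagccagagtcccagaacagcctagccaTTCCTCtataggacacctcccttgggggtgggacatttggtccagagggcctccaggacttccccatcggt
Fpr1 (chr17:17883950-17884189, minus strand): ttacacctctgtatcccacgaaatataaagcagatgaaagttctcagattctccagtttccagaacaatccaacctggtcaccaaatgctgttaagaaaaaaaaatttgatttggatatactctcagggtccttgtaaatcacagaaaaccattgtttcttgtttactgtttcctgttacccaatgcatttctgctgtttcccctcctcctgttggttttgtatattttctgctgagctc
Fpr2 (chr17:17887574-17887813, plus strand): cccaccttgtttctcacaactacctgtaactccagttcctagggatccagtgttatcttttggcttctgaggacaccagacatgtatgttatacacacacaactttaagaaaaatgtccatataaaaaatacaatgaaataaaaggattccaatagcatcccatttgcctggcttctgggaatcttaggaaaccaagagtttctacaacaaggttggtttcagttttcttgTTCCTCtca
The window of Ccr1 held 1 match of GAGGAA and 1 of TGTGGT, the latter on the other strand. Those of Cxcr2 and Fpr2 each held 1 match of GAGGAA on the other strand, and that of Fpr1 held 0 of the 4 motifs. A match describes letters of the sequence and not a bound site, and binding was not measured.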

How the data were processed

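RNA of 9 libraries was sequenced by the authors, aligned to GRCm38.p6 with STAR 2.7.2a and quantified with Cufflinks 2.2.1. FPKM per gene, as deposited by the authors, were used without scaling, and entries sharing an identifier were added up. log2(FPKM + 1) was compared with limma 3.58.1 (R 4.3.3, lmFit, eBayes with trend, no block) for 13493 genes reaching 1 FPKM in 3 or more libraries, with Benjamini-Hochberg adjustment and a threshold of 0.05. Exact permutation tests of single values were two-sided, with a smallest p of 0.1. Python 3.11.15, numpy 2.4.6, pandas 2.3.3, scipy 1.17.1 and matplotlib 3.10.9 were used.

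Members and gene lists were chosen with earlier results of these data known. Named genes are the receptors, Nras, Nup98, Nsd1, markers, up to 3 largest called rises and falls per list and comparison, and the 3 genes most alike each tested receptor. Of these list genes, 3 are counted in their lists but not reported here by name. Further list genes were named after their values were seen. Alternatives were another pseudocount, no or a stricter filter, median-ratio scaling, quantile normalization, TPM, all libraries in 1 fit, array weights, a replicate block and fits without each library.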

Additional observations from a re-analysis of the deposited data

How the results depend on the processing

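Of 309 values of the tested receptors under alternative settings and fits without a library, 275 kept their direction and their side of the threshold, 28 lost a call, 6 gained one and 0 changed direction. Of 43 values of Nras, Nup98 and the list genes with the largest called changes, 26 were called in all alternatives and 17 lost the call in some, with 0 changes of direction. In the stricter filter, at least 5 FPKM in at least 3 libraries, Cxcr4 and Fpr2 were not tested. The cause of the changes below was not tested.

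In NUP98-NSD1 against NRASG12D cells, 7036 genes were called, 3065 with all 9 libraries in 1 fit and 4736 to 7948 without a library. Of the receptors, 6 were called, 3 without the filter, 3 after quantile normalization and 5 to 6 without a library. In NUP98-NSD1+NRASG12D against NRASG12D cells, 5173 genes were called and 2941 to 6327 without a library, with 7 receptors and 6 to 7 without a library. In NUP98-NSD1+NRASG12D against NUP98-NSD1 cells, 1162 genes were called, 169 without the filter, 2251 with all 9 libraries in 1 fit, 3500 with array weights and 283 to 2509 without a library. Of the receptors, 2 were called there, 0 without the filter, 4 with array weights and 0 to 4 without a library. Where limma called 0, without the filter, without NUP98-NSD1 replicate 1 and without NUP98-NSD1 replicate 2, 4, 5 and 3 receptors had an unadjusted p under 0.05.

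With a replicate block, taking same-numbered libraries as paired, 6864, 4531 and 801 genes and 6, 7 and 2 receptors were called. The labels do not describe pairs. After group means were removed, same-numbered libraries correlated by -0.07 to 0.02, -0.06 to 0.06 and -0.18 to 0.16 in the 3 comparisons.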
